A study of Homo sapiens with 20 samples.

Results

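The mRNAs described here encode the IGF2BP family of RNA-binding proteins, IGF2BP1 (ENSG00000159217), IGF2BP2 (ENSG00000073792) and IGF2BP3 (ENSG00000136231), and LIN28B (ENSG00000187772), an RNA-binding protein that is oncofetal like some of them. They were taken by identifier as 4 of the 19962 genes in a table of read counts. The counts come from PAR-CLIP of IGF2BP3, so they ask how much of each mRNA was recovered with the protein that one of them encodes. The cells were HCT116, an established human colorectal carcinoma line, here a derivative that expresses the plant auxin receptor OsTIR1 conditionally (genotype Tet-OsTIR1-PURO), shared by all groups. Before crosslinking (365 nm light, 0.15 J/cm2), every culture was kept in 100 µM 4-thiouridine for 15 h. The 5 conditions were PBS for 2 h, an arsenic salt at 250 µM for 2 h, DMSO for 4 h, and tunicamycin (TM) at 5 µg/mL for 1 h or 4 h. The sample titles call the arsenic salt arsenite and the treatment protocol calls it arsenate; it is called arsenite below. Anti-IGF2BP3 immunoprecipitation gave 3 libraries a condition, and control IgG gave 1. The 1 h treatment with TM had only a 4 h vehicle to be compared with. Nothing in the labels says that replicates came from separate cultures, so p-values measure the spread between these libraries, which may be technical.

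IGF2BP proteins bind mRNAs through RRM and KH domains, mostly in 3′ untranslated regions, and are known for stabilising, storing and localising them. IGF2BP1 and IGF2BP3 are abundant in the embryo, largely silent in most adult tissues and often expressed again in carcinomas, whereas IGF2BP2 is expressed more widely. LIN28B blocks maturation of the let-7 microRNAs, and mRNAs of the IGF2BP family and of LIN28B are themselves known let-7 targets. In PAR-CLIP, 4-thiouridine in the RNA is crosslinked to bound protein by ultraviolet light, which shows up in the reads as T changed to C. TM blocks N-linked glycosylation and so stresses the endoplasmic reticulum, and arsenite causes oxidative stress.

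The anti-IGF2BP3 libraries held 130478 to 1568406 gene counts each, and the IgG libraries 5981 to 17503. The shallowest was PBS replicate 2. By their names the libraries fall into 3 sets: PBS with arsenite, replicates 1 and 2 of DMSO and TM, and replicate 3 of DMSO and TM.

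IGF2BP3 was recovered in every anti-IGF2BP3 library, with 34 to 231 counts. In CPM (counts scaled to a common library size by library total and TMM factor over the 15 libraries), its level under PBS was 197, 270 and 194 in replicates 1 to 3. Under DMSO it was 173, 185 and 184, and after 1 h of TM 185, 187 and 185. The vehicle and 1 h groups lay side by side. The 3 values at 1 h rest on 40, 84 and 193 counts, so their closeness is finer than counting error can resolve. After 4 h of TM the level was 135, 102 and 149, and under arsenite 132, 149 and 139. The arsenite libraries lay below all PBS libraries, a separation that 21% of 6642 genes also showed. The TM 4 h libraries lay below all DMSO and all TM 1 h libraries, as did 9.9% and 12.8% of 8343 genes, respectively. By group mean the order was PBS at 220 ± 43.1 CPM (SD, n = 3), TM 1 h at 186 ± 0.807, DMSO at 181 ± 6.68, arsenite at 140 ± 8.60 and TM 4 h at 129 ± 24.1. The last pair overlapped in range. TM 1 h lay above DMSO by less than 1 CPM at the nearest libraries, a separation that 7.62% of 8343 genes also showed. In these libraries the recovery of an mRNA with the protein and the amount of that mRNA in the cells cannot be told apart.

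IGF2BP2 was also recovered in every anti-IGF2BP3 library, with 20 to 175 counts. Its level was 102, 159 and 112 CPM under PBS and 132, 142.3 and 135 under arsenite. It was 82.3, 130 and 140.9 under DMSO, 162, 140 and 125 after 1 h of TM, and 115, 125 and 83.7 after 4 h. The order of the means, from TM 1 h (142.2 ± 18.7, SD, n = 3) through arsenite (136 ± 5.35), PBS (124 ± 30.2) and DMSO (118 ± 31.2) to TM 4 h (108 ± 21.4), is one in which every neighbouring pair overlapped.

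IGF2BP1, the other oncofetal paralogue, was near the floor of the data. It had 30 counts in all 15 anti-IGF2BP3 libraries together, at most 8 in one library. Its counts were 1, 0 and 1 under PBS, 0, 2 and 3 under arsenite, 3, 4 and 4 under DMSO, 0, 0 and 1 after 1 h of TM, and 1, 2 and 8 after 4 h. Pooled over a group and divided by the raw library totals (raw CPM, with no TMM factor), 1 count after 1 h of TM is 0.567 raw CPM (exact binomial 95% interval 0.0144 to 3.16), and 11 counts under DMSO are 4.20 (2.09 to 7.51). The intervals cover counting error only. All 3 libraries at 1 h, at 0 to 0.959 CPM, lay below all 3 DMSO libraries, at 3.22 to 8.23 CPM, a separation also shown by 7.7% of the 8343 genes that passed the filter on low counts. In a fit without the filter on low counts, its log2 difference at 1 h was -2.64 (SE 1.18, edgeR quasi-likelihood adjusted p = 0.73), which did not pass the test.

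LIN28B, the inhibitor of let-7 maturation, had 11 counts in the same libraries. It had none under PBS and none after 1 h of TM, which allows up to 3.13 and 1.70 raw CPM (3 counts of the group's total). The other counts were 0, 1 and 1 under arsenite, 0, 0 and 3 under DMSO, and 0, 0 and 6 after 4 h of TM. All its counts in the DMSO and TM groups came from replicate 3, the deepest library of each of these groups. Replicate 3 is also a library set of its own, so depth and library set cannot be told apart here. IGF2BP1 and LIN28B did not pass the filter on low counts (edgeR's filterByExpr) in any comparison, so 2 of the 4 mRNAs, IGF2BP2 and IGF2BP3, were tested.

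**Figure D1:**
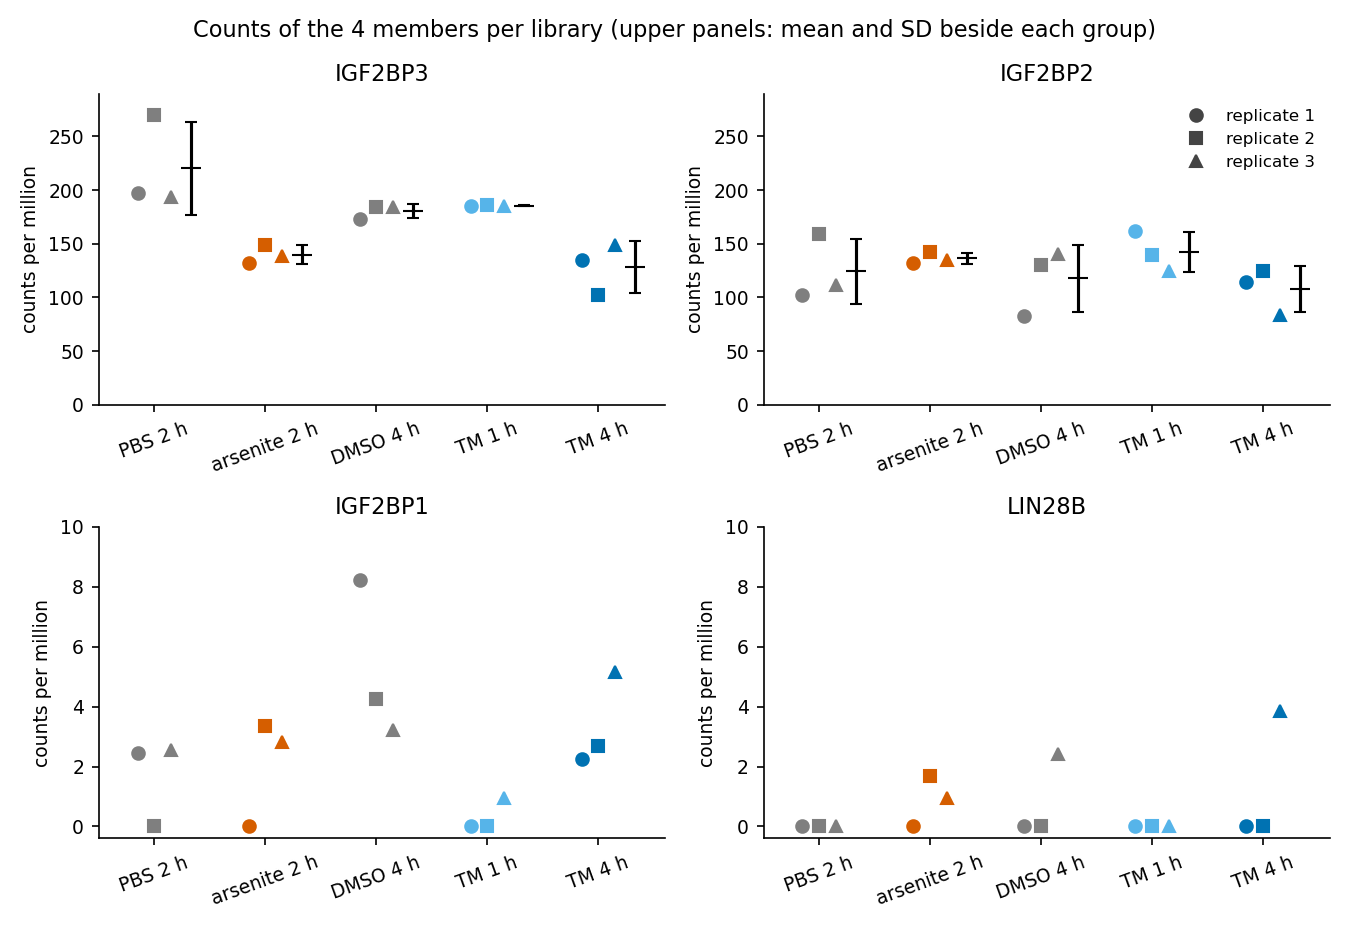
Level of each mRNA in CPM in the 15 anti-IGF2BP3 libraries, by condition (symbols: replicates; upper panels with group mean and SD, n = 3). IGF2BP3 is lower under arsenite than under PBS, and lower at 4 h of TM than under DMSO or at 1 h, without overlap. IGF2BP2 overlaps between each stress and its vehicle, and IGF2BP1 and LIN28B stay at or below 8.23 CPM.

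Recovery in the IgG libraries was measured the same way. IGF2BP3 had 3, 2, 2, 1 and 2 counts in the IgG libraries of PBS, arsenite, DMSO, TM 1 h and TM 4 h. Pooled, these 10 counts are 191 raw CPM (95% interval 91.8 to 352), against 159 (151 to 166) with the antibody. IGF2BP2 had 5 IgG counts, or 95.7 raw CPM (31.1 to 223), against 118 (112 to 125). For IGF2BP1, 2 IgG counts are 38.3 raw CPM (4.64 to 138), a rate above the 2.92 (1.97 to 4.17) found with the antibody. That IgG rate rests on 1 count each at TM 1 h and TM 4 h, and these pooled intervals cover counting error only. LIN28B had no IgG count, with an exact binomial 95% interval that reaches 70.6 raw CPM. As a share of the library totals, IGF2BP2 and IGF2BP3 had overlapping counting intervals with the antibody and with IgG.

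In edgeR's quasi-likelihood test of all 20 libraries with Benjamini-Hochberg adjustment, 9.26% of 7592 genes were called between antibody and IgG and 7.93% were called higher with the antibody. That split turned with the scaling: 602 genes were called higher and 101 lower with TMM, 8 and 130 with library totals, and 4 and 257 with DESeq2. Neither IGF2BP2 (log2 difference 0.91, SE 0.61, adjusted p = 0.33) nor IGF2BP3 (0.40, SE 0.46, adjusted p = 0.61) was called. The median over all genes tested was 0.71 with TMM scaling, so IGF2BP3 lay below it. Scaled by library totals, the value of IGF2BP3 turned to -0.22 and that of IGF2BP2 was 0.25. With TMM, IGF2BP2 was 1.94 without the TM 4 h libraries (edgeR adjusted p = 0.145) and 0.53 without the arsenite libraries (adjusted p = 0.68). The IgG libraries held too few counts to measure either mRNA closely.

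IGF2BP3 recovery fell after 4 h of TM and was not called after 1 h. Against DMSO, the level after 4 h was 1.39-fold lower (log2 difference -0.47, SE 0.13, edgeR quasi-likelihood adjusted p = 0.0119). All 3 libraries lay below all 3 DMSO libraries. In this comparison 5.11% of 8343 genes were called, 2.31% as lower, and 9.9% had lower values without overlap. Against the 1 h treatment, the level at 4 h was 1.41-fold lower (log2 difference -0.50, SE 0.14, edgeR adjusted p = 0.00813). In that comparison 11.6% of genes were called, 5.99% as lower, and 12.8% were lower without overlap. At 1 h against DMSO the log2 difference was 0.03 (SE 0.13, 95% interval -0.23 to 0.28, edgeR adjusted p = 0.98), with 0.551% of genes called.

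The value at 4 h was negative in every alternative run, but its call depends on the test and on single libraries. DESeq2 gave -0.49 against DMSO with an adjusted p of 0.0929. Without TM 4 h replicate 2, the lowest library, the edgeR value was -0.35 (adjusted p = 0.141). Without DMSO replicate 2 or DMSO replicate 3 it was -0.46 in both cases (edgeR adjusted p = 0.0626 and 0.0796). Against TM 1 h the edgeR value was -0.37 without TM 4 h replicate 2 (adjusted p = 0.0842) and -0.50 without TM 1 h replicate 3 (adjusted p = 0.0713). Within the library set of replicates 1 and 2 alone, the edgeR log2 difference from DMSO was -0.65 (adjusted p = 0.0315); the other set held 1 library a group, with 149 CPM after 4 h and 184 under DMSO.

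IGF2BP2 did not pass the test at either time. Its log2 difference was 0.10 after 1 h (SE 0.16, 95% interval -0.21 to 0.42, edgeR adjusted p = 0.90) and -0.30 after 4 h (SE 0.15, -0.60 to -0.00103, adjusted p = 0.30). The interval at 4 h is a normal approximation, and the edgeR quasi-likelihood p before adjustment was 0.0534. Between 4 h and 1 h the log2 difference was -0.40 (SE 0.17, edgeR adjusted p = 0.107). In replicates 1 and 2 alone the 4 h value against DMSO turned to 0.08, so its sign rested on replicate 3.

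Under arsenite, IGF2BP3 recovery fell, while IGF2BP2 did not pass the test. The level of IGF2BP3 was 1.47-fold lower than under PBS (log2 difference -0.56, SE 0.15, edgeR quasi-likelihood adjusted p = 0.00216). The arsenite libraries, at 132 to 149 CPM, lay below the PBS libraries, at 194 to 270 CPM. The background was wide in this comparison, with 34.8% of 6642 genes called, 17.1% as lower, and 21% lower without overlap, so a call of this kind was common. The difference was kept without each library in turn, at -0.61 to -0.48, and with DESeq2 at an adjusted p of 0.0288. For IGF2BP2 the log2 difference was 0.25 (SE 0.18, 95% interval -0.10 to 0.61, edgeR adjusted p = 0.29), and 0.14 without PBS replicate 1.

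The effect of arsenite on IGF2BP3, against PBS, and that of 4 h of TM, against DMSO, were compared in 1 fit of 12 libraries. They differed by -0.09 on the log2 scale (SE 0.20, 95% interval -0.48 to 0.29, edgeR adjusted p = 0.79), where 18.3% of 7796 genes were called. For IGF2BP2 the difference between the effects was 0.56 (SE 0.24, edgeR adjusted p = 0.0987). The vehicles themselves were close, with IGF2BP3 at -0.19 (SE 0.14, edgeR adjusted p = 0.62) and IGF2BP2 at 0.14 (SE 0.19, adjusted p = 0.83) in DMSO minus PBS, and 1.39% of 7558 genes called. Without PBS replicate 2, IGF2BP3 was at -0.09. Vehicle and library set cannot be told apart in that comparison.

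**Figure D2:**
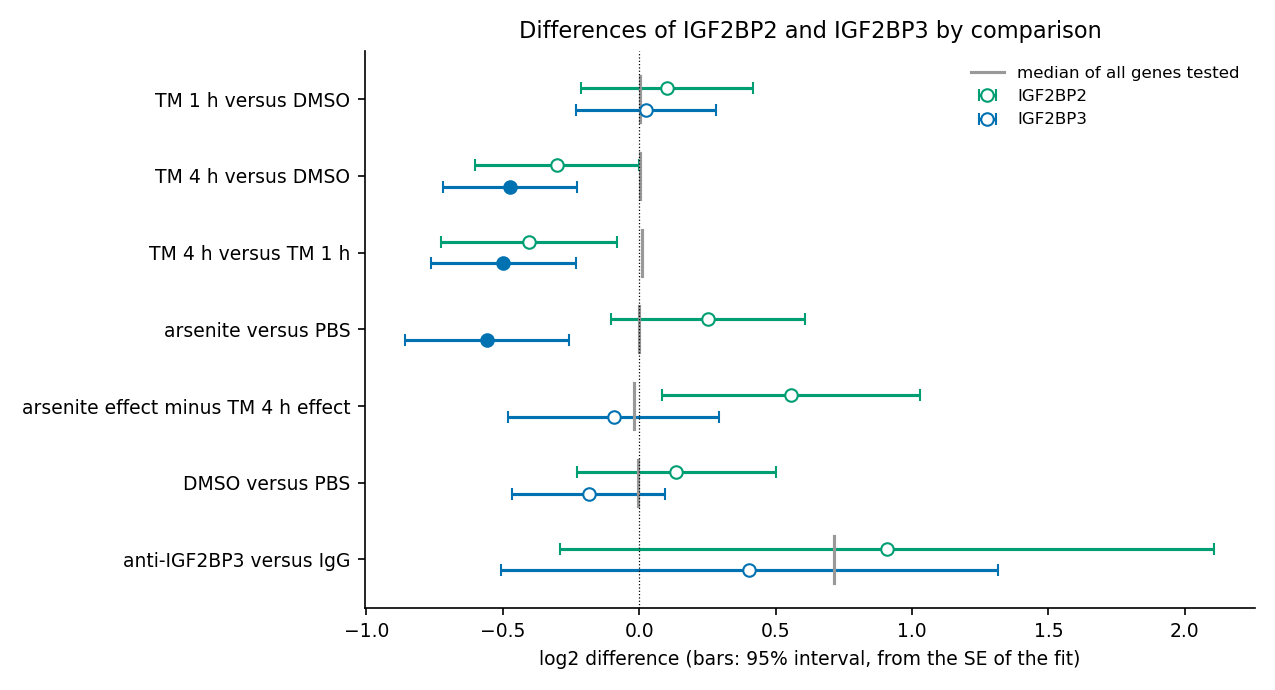
Log2 differences of IGF2BP2 (green) and IGF2BP3 (blue) in each comparison, with 95% intervals from the SE of the fit and the median of all genes tested (grey). Filled points had an edgeR adjusted p under 0.05; these are IGF2BP3 at 4 h of TM against DMSO (-0.47) and against 1 h (-0.50), and under arsenite (-0.56).

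The ratio of IGF2BP3 to IGF2BP2 counts within a library is free of any scaling factor; it also reflects the lengths of the mRNAs, so it is compared only between libraries. This measure was chosen after the counts had been seen. Under PBS it was 1.93, 1.70 and 1.73, and under arsenite 1.00, 1.05 and 1.03. The 3 arsenite libraries lay below all PBS libraries. How many other pairs of genes separate in this way was not computed. The arsenite ratios rest on 52, 89 and 147 IGF2BP3 counts, so their closeness is finer than counting error can resolve. The log2 ratio was lower by 0.80 under arsenite in 3 of 3 libraries (difference -0.80, two-sided exact permutation p = 0.1, the smallest that 3 against 3 can give, 0.4 after adjustment over 4 comparisons). Under DMSO the ratio was 2.10, 1.42 and 1.31, after 1 h of TM 1.14, 1.33 and 1.48, and after 4 h 1.18, 0.817 and 1.78. These groups overlapped, and their log2 differences from DMSO were -0.26 at 1 h and -0.40 at 4 h (exact permutation p = 0.5 and 0.4, both 0.67 after adjustment). Leaving out single libraries moved the value at 1 h from -0.39 (without DMSO replicate 3) to -0.05 (without DMSO replicate 1), and that at 4 h from -0.68 (without TM 4 h replicate 3) to -0.12 (without TM 4 h replicate 2).

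**Figure D3:**
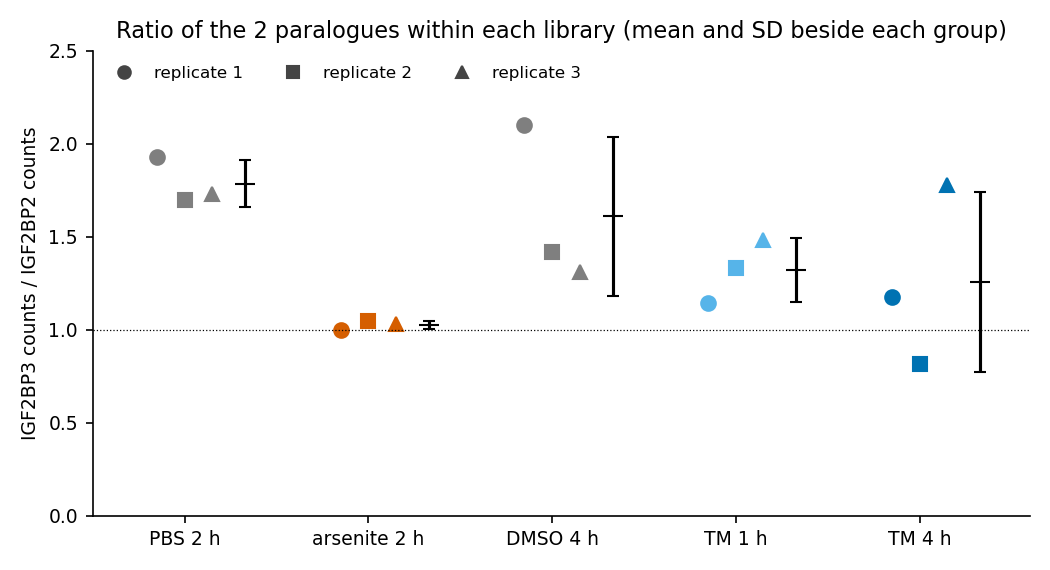
Ratio of IGF2BP3 to IGF2BP2 counts in each anti-IGF2BP3 library, by condition, with group mean and SD (n = 3); the dotted line marks equal counts. The arsenite libraries sit between 1.00 and 1.05, below the PBS libraries at 1.70 to 1.93, while the DMSO and TM groups overlap.

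The authors' cluster lists, called per library, place these reads on the mRNAs. A cluster is a stretch of overlapping reads with T-to-C conversions. IGF2BP3 had 85 clusters in 12 of the 15 anti-IGF2BP3 libraries, with 806 reads, and IGF2BP2 had 49 in 10 libraries, with 465 reads. The libraries without a cluster on IGF2BP3 were PBS replicate 2, arsenite replicate 1 and TM 1 h replicate 1, and those without one on IGF2BP2 were these 3, PBS replicate 1 and DMSO replicate 1. All 5 held at most 423906 gene counts. IGF2BP1 and LIN28B had no cluster in any library, and no IgG library had a cluster on any of the 4 genes. The IgG libraries held only 33 to 180 clusters each over all genes, so this absence cannot tell antibody from IgG.

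Nearly all clusters lay close to the 3′ end. Clusters that shared a base across libraries were merged into 13 regions on IGF2BP3 and 10 on IGF2BP2. Of the cluster reads, 95.9% on IGF2BP3 (chromosome 7, minus strand) and 95.1% on IGF2BP2 (chromosome 3, minus strand) lay in regions that started within 2500 bases of the 3′ end of the RefSeq gene. No region of either gene began between 2069 and 8937 bases from the end, so this limit falls in a gap of these same regions. The same share over clusters of all genes was not computed. Whether a region is untranslated or coding was not determined, since no exon annotation was used here. Beyond that distance each gene had a single region, chr7:23319146-23319246 on IGF2BP3, 8937 bases from the end and found in 5 libraries, and chr3:185658342-185658410 on IGF2BP2, 15212 bases from the end and found in 3.

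On IGF2BP3, 3 regions were found in at least 8 libraries and held 49.6% of its cluster reads. The first, chr7:23310216-23310333 (hg38), began 7 bases from the 3′ end of the gene and was found in 10 libraries with 127 reads. Its neighbour, chr7:23310340-23310472, was found in 9 libraries with 171 reads, the most of any region on this mRNA. The other, chr7:23312168-23312322, lay 1959 bases from the end and was found in 9 libraries with 102 reads. IGF2BP2 had 1 such region, chr3:185644672-185644852, 1542 bases from the end, found in 10 libraries with 194 reads, or 41.7% of its cluster reads. All 4 regions were found under arsenite, DMSO and TM at both times, and all but the first also under PBS.

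The 30 bases that most libraries shared in these 4 regions are shown because they are where recovery recurred, with CATT, CATC and CATA in capitals. These are the forms, in DNA letters, of CAUH, an element described for IGF2BP proteins.
IGF2BP3, chr7:23310281-23310310, minus strand: ctcacCATAtatggatCATTcctcatgtat
IGF2BP3, chr7:23310405-23310434, minus strand: aaattctgtCATAtttcacttctagccttt
IGF2BP3, chr7:23312257-23312286, minus strand: accccctatccagaatcacatgcacaagtt
IGF2BP2, chr3:185644759-185644788, minus strand: ctcatgcctgtctagctCATAcaccCATTt
On the strand of the RNA, 3 of the 4 windows held a CAUH element, which 55.6% of 12208 windows of the same length in recurrent regions of all genes also held. The lone window without one, on IGF2BP3, held CACA, as did 21.4% of all such windows. None of the 4 held GGC, present in 19.1% of all windows, or GGACT, present in 1.83%. With 4 windows these counts are descriptions; taken over single clusters, CAUH was in 50.4% of 127 windows of IGF2BP2 and IGF2BP3 and in 45.9% of 364271 windows of all genes.

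**Figure D4:**
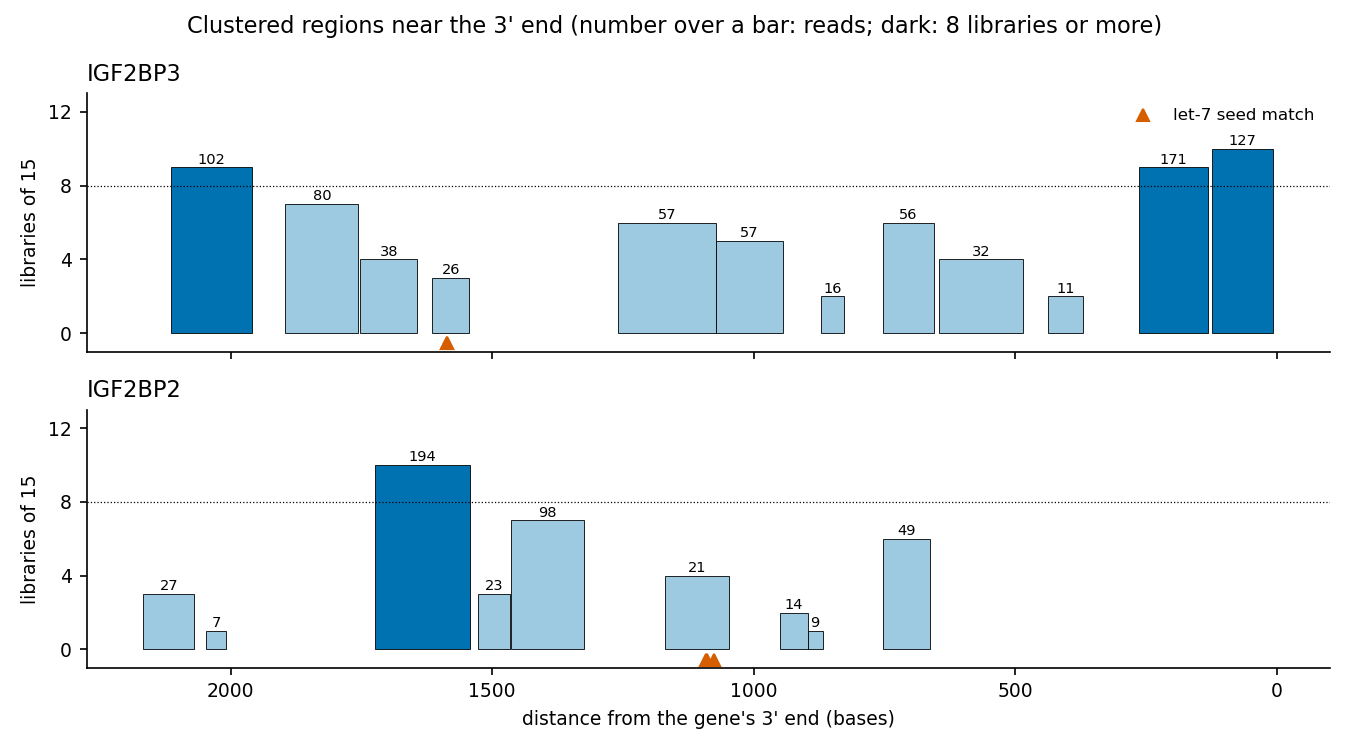
Regions of merged clusters near the 3′ end of IGF2BP3 and IGF2BP2: distance from the 3′ end of the gene in bases (horizontal) against the number of the 15 anti-IGF2BP3 libraries with a cluster there (vertical), with reads above each bar and triangles at let-7 seed matches. IGF2BP3 has 3 dark bars (found in 8 libraries or more), at 7, 131 and 1959 bases, and IGF2BP2 has 1, at 1542.

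The clusters of both mRNAs included matches to the let-7 seed. All 8 mature let-7 sequences in the RefSeq table used (GRCh38.p14) share the seed GAGGUAG at bases 2 to 8, in capitals here.
hsa-let-7a-5p: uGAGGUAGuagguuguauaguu
The matches searched on the RNA strand were CTACCTC, which pairs with bases 2 to 8, and TACCTCA, which pairs with bases 2 to 7 and is followed by A; they overlap by 6 bases where both occur. They are in capitals in the stretches below, which begin at the match and end within the cluster.
IGF2BP2, chr3:185644198-185644227, minus strand, from TM 4 h replicate 3: CTACCTCAggtgttttTACCTCAgcacctt
IGF2BP3, chr7:23311773-23311802, minus strand, from DMSO replicate 3: CTACCTCAggtattcagtaatacaatgaaa
The first IGF2BP2 match was covered by clusters of 2 libraries (11 reads) and the second, downstream of it, by clusters of 3 (15 reads). The IGF2BP3 match was covered in DMSO replicates 2 and 3 and TM 1 h replicate 3, with 26 reads in all. The IGF2BP2 pair lay in a region 1048 bases from the 3′ end of the gene, found in 4 libraries, and the IGF2BP3 match in a region 1544 bases from it, found in 3, so neither was in a recurrent region. Of the whole clusters of the 2 genes, 7 of 134 held one of the 2 matches, against 1.02% of 412123 clusters of all genes. These clusters cover 2 regions only, so they are not independent of each other. A match is a run of letters, and binding of let-7 was not measured.

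Cluster reads per library were 0 in several shallow libraries. The number of clusters on IGF2BP3 was 5, 0 and 3 under PBS, 0, 4 and 6 under arsenite, 2, 12 and 15 under DMSO, 0, 4 and 14 after 1 h of TM, and 2, 3 and 15 after 4 h. On IGF2BP2 it was 0, 0 and 2 under PBS, 0, 3 and 6 under arsenite, 0, 7 and 10 under DMSO, 0, 3 and 7 after 1 h of TM, and 1, 4 and 6 after 4 h. In every group but PBS, the deepest library had the most clusters on both mRNAs. With cluster reads per gene count total, on a log2 scale after adding 1 CPM, none of the 6 comparisons of a stress with its vehicle separated the groups (two-sided exact permutation p = 0.4 to 1, adjusted p = 0.72 to 1, where 3 against 3 cannot go below 0.1). The fall of IGF2BP3 counts was thus not resolved in its cluster reads, whose log2 differences were -0.62 at 4 h of TM and -0.17 under arsenite. Leaving out single libraries moved the first from -1.29 (without DMSO replicate 1) to -0.20 (without DMSO replicate 3).

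T-to-C conversion events, as a share of all conversion and non-conversion events, made up 8.12% at clusters on IGF2BP3 (540 conversion events, exact Clopper-Pearson 95% interval 7.48 to 8.81) and 8.44% on IGF2BP2 (301 conversion events, 7.55 to 9.40). These intervals pool the events of all clusters and libraries and cover counting error only. By library the share ran from 6.86% to 12.4% (median 8.04%) on IGF2BP3 and from 6.42% to 12.96% (median 8.44%) on IGF2BP2, the extremes being from libraries with 10 to 32 cluster reads on the gene. Over all clusters of the same libraries the share was 7.58% to 8.67%. It was above the library's own share in 9 of 12 libraries for IGF2BP3 and in 7 of 10 for IGF2BP2. The 5 comparisons of a stress with its vehicle that had at least 2 libraries a group could not reach 0.05, since the smallest p their 2 or 3 libraries a group allow is 0.1 to 0.33 (two-sided exact permutation test over libraries, adjusted p = 1 in each). IGF2BP2 under arsenite had no test, since 1 PBS library held clusters on it. Among the recurrent regions it was highest at the IGF2BP3 region 1959 bases from the end (11.6%) and lowest at its neighbour of the 3′ end (5.46%), with 6.36% at the IGF2BP2 region.

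**Figure D5:**
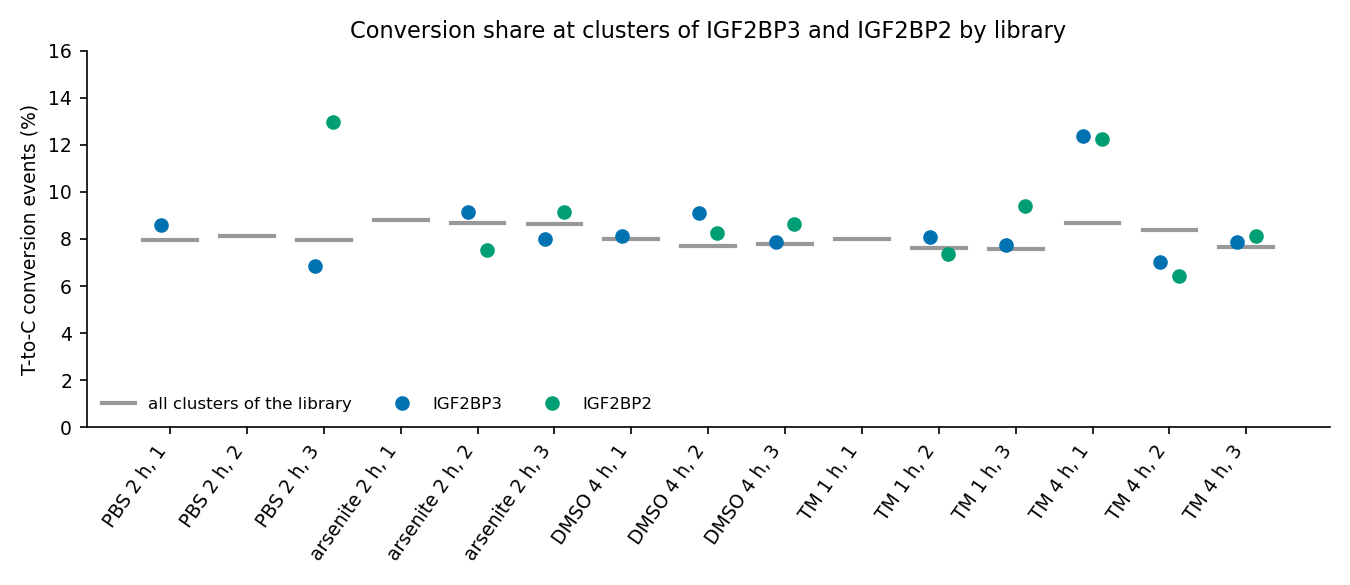
T-to-C conversion share in percent at clusters of IGF2BP3 (blue) and IGF2BP2 (green) in each anti-IGF2BP3 library, with the share over all clusters of that library (grey line); libraries without a cluster on the gene have no point. Most points lie near the line, and the highest are 12.96% for IGF2BP2 in PBS replicate 3 and 12.4% for IGF2BP3 in TM 4 h replicate 1.

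Base composition and length of the clusters are given as a description only. The clusters of a gene are repeated calls of the same regions across libraries, and a difference between the paralogues was not tested. The clusters of IGF2BP2 held 30.2% C and 30.02% T, those of IGF2BP3 21.9% C and 33.4% T, and all clusters 24.9% C and 31.6% T. Median lengths were 47, 53 and 50 bases.

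The genes of related pathways could be followed only through cluster reads summed per gene, because the count table names genes by identifier alone. In that fit of cluster reads, 0% of 3944 genes were called at 1 h of TM, 0.228% at 4 h, and 12.6% of 2244 under arsenite, 9.36% as higher (edgeR quasi-likelihood test, adjusted p under 0.05). IGF2BP3 gave a log2 difference of -0.68 at 4 h of TM (SE 0.68, edgeR adjusted p = 1) and of -0.55 under arsenite (SE 1.22, adjusted p = 0.84). IGF2BP2 gave -0.37 at 4 h (SE 1.04, edgeR adjusted p = 1) and 1.49 under arsenite (SE 1.58, adjusted p = 0.63).

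Of 12 genes of the let-7 pathway, 8 were in the table with a strand; DICER1, which cuts the precursor, and XPO5, which exports it, had enough reads for a test in TM, with log2 differences of 1.37 (SE 1.65) and 0.85 (SE 1.68) at 4 h, and neither passed. None of the 8 had enough under arsenite. Of 9 partners of IGF2BP proteins in ribonucleoprotein particles, 6 were tested in TM and none passed. Under arsenite 1 of 5 tested rose, HNRNPU, a nuclear matrix protein (log2 difference 1.17, SE 0.24, edgeR adjusted p = 0.0189), while MATR3 gave 0.75 (adjusted p = 0.111). Of 7 genes of the IGF axis, 2 were tested in TM and 1 under arsenite, and none passed. IRS1, the adaptor of the insulin and IGF receptors, had 3945 cluster reads in 15 libraries and gave -0.63 at 4 h of TM (SE 0.20, edgeR adjusted p = 1) and -0.38 under arsenite (SE 0.27, adjusted p = 0.43). Of 11 genes of the m6A machinery, 7 were tested in TM and none passed. Under arsenite 1 of 6 tested rose, the m6A reader YTHDF2 (log2 difference 0.89, SE 0.21, edgeR adjusted p = 0.0288).

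By correlation of log2 CPM over the 15 libraries, among 3337 genes that averaged 50 counts or more a library, the genes most like IGF2BP3 were ENSG00000152291_14 (Pearson r = 0.93) and ENSG00000025800_14 (r = 0.90). Those most like IGF2BP2 were ENSG00000113384_14 (r = 0.81) and ENSG00000198369_10 (r = 0.80). IGF2BP2 and IGF2BP3 themselves gave r = 0.20. These are descriptions over libraries that share conditions and depth. IGF2BP1 and LIN28B averaged 2 and 0.733 counts a library, too few for such a ranking.

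Epithelial and intestinal markers of the cell line could be checked only among cluster reads. KRT8 had 424 cluster reads in 14 of 15 libraries, CDX2 had 16 in 2 libraries, and PTPRC, a marker of blood cells, had 0. Recovery with IGF2BP3 is not an expression level, so an absent marker says little.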

How the data were processed

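PAR-CLIP libraries of HCT116 cells were grouped by the treatment and antibody in the labels. The 4 genes, the pathway lists and the named-gene rule (members, at most 3 genes a list by lowest p, 2 most like each member, regions in at least 8 libraries) were chosen with earlier results of these data known. Per the submitters' processing notes, the tools included bcl2fastq 2.20.0.422, UMI-tools 1.1.1, Trimmomatic 0.30, Bowtie 0.12.7 and featureCounts 2.0.1, with GRCh38.p13 and hg38. The authors deposited raw counts per gene; how reads of overlapping or near-identical genes, or strand, were counted is not given in the sources used here. IGF2BP3 overlaps MALSU1 on the opposite strand. The protocol lists more than 1 RNase concentration, not tied to libraries, and only 4 h for TM, where sample labels were followed.

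The count table pairs no symbols with identifiers, and the symbols of the 4 were assigned from general knowledge. As a check, cluster reads at IGF2BP3 exceeded the counts of its own row in 0 of 15 libraries and those of the IGF2BP2 row in 3; cluster reads at IGF2BP2 exceeded the counts of neither row in any library, so the check does not tell the rows apart for IGF2BP2. Clusters with positions, sequence, read counts and conversion event counts were deposited per library; the caller is not given in the sources used here. In the arsenite set the names of both IgG lists are swapped against their samples; both held 0 clusters on the 4 genes. Clusters were assigned by overlap with RefSeq genes (GRCh38.p14) on their strand, or on either strand for IGF2BP1. As a check of the build, all 1157 clusters inside RefSeq promoter windows had the reference sequence.

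Tests of counts used edgeR 4.0.16 under R 4.3.3 (filterByExpr, TMM, quasi-likelihood, two-sided, Benjamini-Hochberg over all genes tested, threshold 0.05), with 9 libraries in the TM fit, 6 for arsenite, 12 for the difference between stresses, 15 for DMSO against PBS and 20 for IgG with condition as covariate. Exact permutation tests used scipy 1.17.1. On simulated counts with 200 genes changed 2-fold, 72% were recovered at TM 1 h, 81.5% at TM 4 h, 74% between the times, 76% for arsenite and 60.5% for the difference between stresses, on 8155, 8178, 8188, 6430 and 7590 genes; the changes of IGF2BP3 were smaller than 2-fold. The simulation gave every gene the same dispersion (spread between replicates), whereas the fits estimated a spread per gene. The recovered shares are therefore not the power for IGF2BP2 or IGF2BP3. Replicates of a group differed beyond counting noise in all pairs. Replicate numbers were taken not to pair libraries, since deviations of same-numbered libraries correlated at -0.041 to 0.015. Alternatives were DESeq2 1.42.0, scaling, filters, variance moderation, a replicate block, library sets and leaving out libraries.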

Additional observations from a re-analysis of the deposited data

Results flagged for a closer look

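IGF2BP3 differed between the times of TM treatment: its log2 difference of TM 4 h from TM 1 h was -0.50 (SE 0.14, edgeR quasi-likelihood adjusted p = 0.00813), with all 3 libraries at 4 h below all 3 at 1 h. The adjusted p was 0.0842 without TM 4 h replicate 2.

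IGF2BP3 also lay on opposite sides of the vehicle mean in every library, above the DMSO mean at 1 h of TM and below the PBS mean under arsenite. The value at 1 h was 0.03, which is small beside its SE of 0.13, and the value under arsenite was -0.56. The difference between these effects was not tested. Among all genes, 7.62% of 8343 were higher without overlap at 1 h of TM, and 21% of 6642 were lower without overlap under arsenite.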

How the results depend on the processing

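IGF2BP3 under arsenite kept its direction and call under all 7 alternatives run and without each library. DESeq2 called fewer genes than edgeR: 6 at TM 1 h, 151 at TM 4 h, 502 between the times, 1233 for arsenite, 854 for the difference between stresses, 27 for DMSO against PBS and 261 for IgG, against 46, 426, 967, 2310, 1427, 105 and 703. IGF2BP3 at TM 4 h was -0.49 with DESeq2 and lost its call. Against IgG, IGF2BP3 reversed to -0.22 with library totals and -0.24 with DESeq2, and genes called were 138 with library totals and 379, 423 and 443 without arsenite, DMSO and TM 4 h. A mean count of at least 50 left 1380 genes called for arsenite, with fewer genes tested. With the replicate block, which changed no call of IGF2BP2 or IGF2BP3, IGF2BP3 was -0.49 at TM 4 h, -0.50 between the times and -0.60 under arsenite, and 371, 902 and 2111 genes were called. Without single libraries or the set of replicate 3, IGF2BP3 ranged from -0.66 to -0.35 at TM 4 h, -0.69 to -0.37 between the times and -0.21 to 0.10 for the difference between stresses. IGF2BP2 ranged from -0.0091 to 0.37 at TM 1 h, -0.46 to 0.080 at TM 4 h, -0.56 to -0.16 between the times (called without TM 4 h replicate 2), 0.19 to 0.73 for the difference between stresses (called without that library or DMSO replicate 1) and -7.9e-05 to 0.25 for DMSO against PBS and 0.14 to 0.35 under arsenite. IGF2BP3 ranged from -0.24 to -0.09 for DMSO against PBS. Genes called ranged from 13 to 41 at TM 1 h, 129 to 431 at TM 4 h, 488 to 859 between the times and 18 to 90 for DMSO against PBS. The log2 ratio of IGF2BP3 to IGF2BP2 ranged from -0.42 to 0.14 between the times. Log2 cluster reads ranged for IGF2BP2 from -2.37 to 1.62 at TM 1 h and -1.23 to 1.93 at TM 4 h, and for IGF2BP3 from -3.16 to 0.37 at TM 1 h and -2.17 to 1.73 under arsenite. Conversion shares differed by -1.07 to 0.97 percentage points (IGF2BP2, TM 1 h), -1.17 to 1.74 (IGF2BP2, TM 4 h), -0.94 to 1.76 (IGF2BP3, TM 4 h) and -0.019 to 1.71 (IGF2BP3, arsenite). Clusters of at least 10 reads reversed cluster reads of IGF2BP2 at TM 4 h (-0.41) and IGF2BP3 under arsenite (1.42) and conversion shares at TM 4 h of IGF2BP2 (-2.43) and IGF2BP3 (-0.28), and left 0 regions in 8 libraries on either. The median over clusters turned the share of IGF2BP3 at TM 1 h to 0.24. Except where stated, the cause was not tested. Few counts limit what can be said of IGF2BP1 and LIN28B in all libraries and of all 4 mRNAs in IgG. Whether depth, recovery or the mRNA level lies behind the few counts was not tested.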
